A study of Mus musculus with 6 samples.

Results

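The exons described here are cassette exons longer than 30 bases whose length is not a multiple of 3, so that including or skipping one moves the reading frame of whatever follows it. They were taken by length alone from the deposited sheet of skipped exons, with 1 event kept for each distinct exon, the event with the most reads. There were 13679 such exons in 7065 genes, out of 24641 distinct skipped exons, and they ran from 31 to 9310 bases with a median of 118. The remaining skipped exons were 10361 of more than 30 bases that keep the frame and 601 of 30 bases or fewer. At the length limit, the 13 exons of 29 bases with 6 read well enough had a median inclusion of 0.968, and the 29 exons of 31 bases with 12 read well enough had one of 0.983.

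RNA came from the heart ventricle of C57BL6 mice on postnatal day 1, with 3 libraries from wild-type (WT) animals and 3 from animals with a knockout (KO) of Rbpms. Rbpms encodes an RNA-binding protein, and the series places it in the division of heart muscle cells. The labels call the libraries of a genotype biological replicates but do not say how many animals each holds, what form the knockout allele takes, or the sex of the animals, so a p-value speaks only of the spread among these libraries, which may be technical. Polyadenylated RNA was sequenced with strand information kept.

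The splicing sheets hold 2 sets of 3 libraries and their headers do not say which genotype a set is. The sets were told apart by reads at the 5 skipped exons of Rbpms itself. The first set had 1286, 1538 and 1570 junction reads there and the second had 17, 9 and 6. The first is called the Rbpms-present set below and the second the Rbpms-absent set, and libraries are numbered by their place in the set, which is not tied to a replicate number. All inclusion differences are the absent set minus the present set. In the gene expression table, whose columns name the genotype, Rbpms stood at 33.1, 35.7 and 38.1 RPKM (a read density scaled for gene length and for library size) in WT and at 0.594, 0.276 and 0.240 in KO.

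A cassette exon is one that the splicing machinery may join into the messenger RNA or pass over together with its flanking introns. When the exon's length is not a multiple of a codon, one of the 2 choices usually brings an early stop codon into frame. A stop that lies well upstream of the last exon junction marks a transcript for nonsense-mediated decay, in which the exon junction complex downstream of the stop recruits the UPF proteins and the RNA is degraded. Exons whose inclusion brings in such a stop are known as poison exons, and many genes of splicing factors hold one. Exons outside the coding sequence, in the leader or the 3' untranslated region, can be of any length without moving a frame.

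The sequences of exons on which the results turn are shown to let the change of frame be seen. They are taken from GENCODE M21 transcripts on GRCm38 and written 5' to 3' on the strand of the gene. As3mt, Tpd52l2 and Rbm5 are the called exons of at most 200 bases in the coding sequence, and Nr1d1 and Cyld are 2 exons among the largest rises that did not pass the test. Map3k7 and Sf3b1 were added after their values were seen, because inclusion of these exons brings in a stop. In the lines marked skipped, the last 24 bases of the exon before are joined to the exon after, and the capitals mark the first stop codon in the shifted frame. In the lines marked included, capitals mark the first stop reached when the exon is read in the frame of the coding transcript.
As3mt exon (chr19:46708968-46709118, plus strand): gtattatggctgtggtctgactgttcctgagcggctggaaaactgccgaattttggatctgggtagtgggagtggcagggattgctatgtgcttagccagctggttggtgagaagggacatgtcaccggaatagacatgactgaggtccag
As3mt skipped: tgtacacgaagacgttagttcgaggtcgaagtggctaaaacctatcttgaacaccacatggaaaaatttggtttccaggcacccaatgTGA
Tpd52l2 exon (chr2:181501905-181502053, plus strand): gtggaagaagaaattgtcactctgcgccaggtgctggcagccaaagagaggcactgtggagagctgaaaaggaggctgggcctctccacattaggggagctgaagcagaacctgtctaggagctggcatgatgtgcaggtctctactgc
Tpd52l2 skipped: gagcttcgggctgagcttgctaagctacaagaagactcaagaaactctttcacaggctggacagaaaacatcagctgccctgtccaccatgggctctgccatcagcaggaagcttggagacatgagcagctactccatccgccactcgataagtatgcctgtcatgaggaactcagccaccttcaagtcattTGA
Rbm5 exon (chr9:107755853-107755913, minus strand): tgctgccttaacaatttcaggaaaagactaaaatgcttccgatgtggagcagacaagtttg
Rbm5 skipped: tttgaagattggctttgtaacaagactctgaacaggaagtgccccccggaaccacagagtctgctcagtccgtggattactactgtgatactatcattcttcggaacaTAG
Nr1d1 exon (chr11:98771437-98771525, minus strand): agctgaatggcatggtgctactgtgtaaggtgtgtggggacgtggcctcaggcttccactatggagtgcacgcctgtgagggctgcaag
Nr1d1 skipped: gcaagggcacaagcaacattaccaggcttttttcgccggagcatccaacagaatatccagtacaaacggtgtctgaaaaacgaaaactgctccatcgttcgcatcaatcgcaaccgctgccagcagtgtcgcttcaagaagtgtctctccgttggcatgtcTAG
Cyld included (chr8:88730656-88730821, plus strand): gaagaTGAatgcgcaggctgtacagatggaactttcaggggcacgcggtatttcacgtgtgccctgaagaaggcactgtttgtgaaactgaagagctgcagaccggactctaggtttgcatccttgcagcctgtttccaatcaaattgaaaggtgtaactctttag
Sf3b1 included (chr1:55014869-55014924, minus strand): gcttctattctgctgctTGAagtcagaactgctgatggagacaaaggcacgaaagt
Map3k7 included, exon and the bases after it (exon at chr4:31994874-31995010, plus strand): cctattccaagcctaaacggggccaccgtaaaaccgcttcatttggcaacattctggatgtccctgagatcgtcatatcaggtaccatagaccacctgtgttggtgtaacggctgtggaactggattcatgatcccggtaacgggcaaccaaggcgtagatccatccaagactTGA

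Most frame-shifting exons that could be read were joined into nearly all transcripts. Of the 13679, 7586 had at least 20 junction reads in each of the 6 libraries, and the other exons fell short of that minimum and are not tested. The inclusion level is the share of length-corrected junction reads that include the exon, from 0 to 1. Its mean over the 6 libraries was above 0.95 for 6216 exons, below 0.05 for 423, and in between for 947 exons in 792 genes, which were tested. The share in between was 12.5% of the exons read, against 21.3% (1283 of 6027) of frame-keeping exons and 42.0% (111 of 264) of those of 30 bases or fewer. This is a description of the same libraries and carries no test.

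Where the exons lay in annotated transcripts went with how often they were included. Of the 6216 nearly always included, 91.0% lay within the coding sequence of an annotated transcript. Of the 947 in between, 602 (63.6%) were coding, 114 held a start or stop codon, 97 were in 5' untranslated regions and 3 in 3' untranslated regions. A further 74 occurred only in transcripts annotated as decay targets and 57 only in noncoding transcripts. Of the 423 exons with a mean inclusion below 0.05, 197 (46.6%) occurred only in decay transcripts and 30 (7.09%) were coding. Frame-keeping exons with such low inclusion were coding in 37.7% of cases and found only in decay transcripts in 26.3%.

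**Figure D1:**
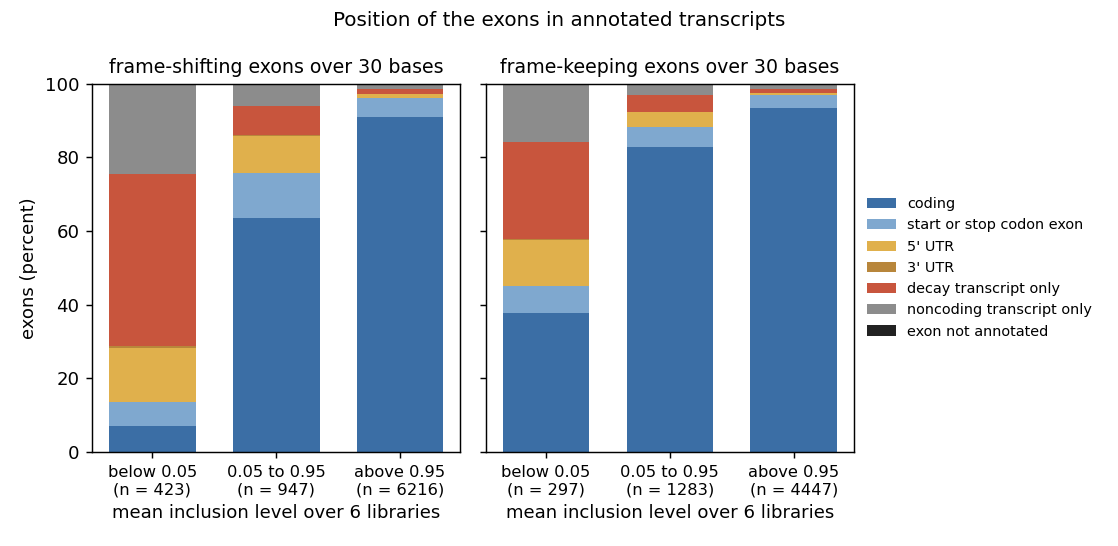
Share of exons (vertical axis, percent) at each position in GENCODE M21 transcripts, for 3 classes of mean inclusion over 6 libraries, in frame-shifting (left) and frame-keeping (right) exons of more than 30 bases with at least 20 junction reads per library. Exons found only in decay transcripts make up 46.6% of the frame-shifting exons below 0.05 and 1.42% of those above 0.95.

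The position of a tested exon was also seen in its level. The median inclusion of the 602 coding exons was 0.905, 0.902 and 0.889 in the present set and 0.903, 0.882 and 0.874 in the absent set. The 74 exons of decay transcripts had medians of 0.181, 0.189 and 0.190 in the present set and of 0.207, 0.207 and 0.200 in the absent set. Coding exons were thus mostly included and decay exons mostly skipped in all 6 libraries, and neither median moved by more than a few hundredths between the sets.

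Reading the frame through each tested exon gave the outcome of the 2 choices. For 356 exons, skipping brought a stop more than 50 bases before the last exon junction, the usual distance for decay, and their median inclusion was 0.912. For 138, it was inclusion that brought such a stop, and their median inclusion was 0.167. Some of these, such as exons of Tpm3, Actn4, Dnm2 and Pkm, are coding in an annotated transcript. No annotated transcript joins those exons to both flanking exons of their event. In these 2 groups the major form was mostly the one without the early stop. The choice that was followed depended on the annotation. Exons that are coding in a transcript with both of their junctions were read through skipping, and others through inclusion. The levels therefore also follow the annotation and do not single out the early stop. Another 163 exons gave a new stop in or near the last exon when skipped, with a median inclusion of 0.885. A further 56 gave one when included, with a median of 0.385. A total of 114 lay between noncoding exons, 4 gave no stop, and 116 could not be followed in the annotation. Both forms were annotated as protein-coding for 303 of the 947, against 805 of the 1283 tested frame-keeping exons (62.7%).

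Between the sets, inclusion was compared exon by exon. With limma on the log2 odds of inclusion and Benjamini-Hochberg adjustment over all 2341 skipped exons tested, 10 of 947 passed an adjusted p of 0.05 (1.06%), 3 higher and 7 lower in the absent set. The background over all exons tested was 2.26% (53 of 2341), with 0.982% higher and 1.28% lower. Among frame-keeping exons 36 of 1283 passed (2.81%), and among those of 30 bases or fewer 7 of 111 (6.31%). At an unadjusted p below 0.05 there were 84 frame-shifting exons (8.87%), against 11.7% of all exons tested. The present and the absent set did not overlap for 131 exons (13.8%), against 17.3% of all exons tested.

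The number of calls moved with the number of reads. Of 573 frame-shifting exons with fewer than 50 reads in their shallowest library, 3 were called (0.524%), and of 49 with at least 200 reads 4 were called (8.16%). Frame-keeping exons gave 1.45% (10 of 689) and 6.60% (7 of 106) at the same depths. With 50 or more and under 200 reads the shares were 0.923% (3 of 325) and 3.89% (19 of 488). The median over tested exons of the mean reads per library was 53.8 for frame-shifting and 60.7 for frame-keeping exons. At this depth, a missing call does not show that an exon stayed the same.

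In size, the differences in mean inclusion ran from -0.262 to 0.277 with a median of -0.00533. They reached 0.1 in either direction for 97 exons (10.2%), 40 higher and 57 lower, against 225 of 1283 frame-keeping exons (17.5%). The median absolute difference was 0.035 for frame-shifting and 0.0393 for frame-keeping exons. The median SD between libraries of a set was 0.0438 (present) and 0.0491 (absent) for frame-shifting exons, so that the typical difference was no larger than the spread within a set.

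**Figure D2:**
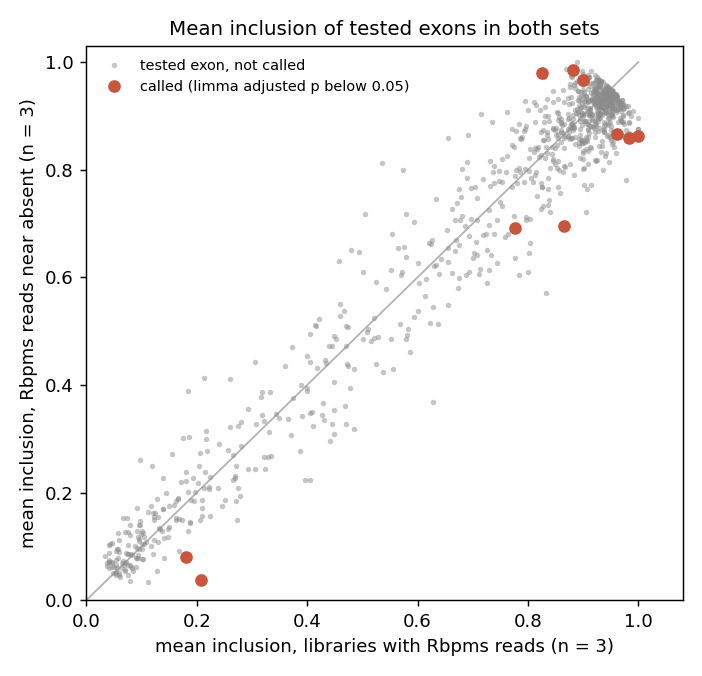
Mean inclusion level (0 to 1) of the 947 tested frame-shifting exons in the Rbpms-present set (horizontal axis, 3 libraries) and the Rbpms-absent set (vertical axis, 3 libraries), with equality as a grey line. The 10 called exons are in red, 7 below the line and 3 above it.

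Of the 10 called exons, 3 lay in untranslated regions where no frame is moved. Mfn2 encodes mitofusin 2, a GTPase that fuses outer mitochondrial membranes. Its 83-base exon in the 5' untranslated region (chr4:147902928-147903010, minus strand) had 260 to 575 reads per library. Inclusion levels were 0.882, 0.882 and 0.832 in the present set and 0.667, 0.712 and 0.705 in the absent set. The sets were well separated, with a fall in the mean from 0.865 ± 0.0289 to 0.695 ± 0.0242 (SD, n = 3), a log2 odds ratio of -1.51 (SE 0.23) and an adjusted p of 0.0114. Mfn2 is also the only gene named here with a called exon and a called fall in RPKM, as given further on.

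Atp5j encodes coupling factor 6 of the mitochondrial ATP synthase. Its 55-base exon in the 5' untranslated region (chr16:84833820-84833874, minus strand) had 799 to 1184 reads per library. Inclusion levels were 0.201, 0.169 and 0.169 in the present set and 0.075, 0.087 and 0.080 in the absent set. The exon was a minor choice throughout and fell from 0.180 ± 0.0185 to 0.0807 ± 0.00603 (SD, n = 3), with a log2 odds ratio of -1.32 (SE 0.16) and an adjusted p of 0.00423. The gene's RPKM did not pass the test, at 111, 84.5 and 95.8 in WT and 87.1, 101 and 104 in KO.

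Smpx encodes a small protein of striated muscle tied to the costamere. Its 35-base exon in the 3' untranslated region (chrX:157751595-157751629, plus strand) had inclusion levels of 0.783, 0.765 and 0.782 against 0.675, 0.697 and 0.704 in the absent set. It was the most deeply read of the called exons, with 2369 to 3670 reads per library, and the small fall of 0.0847 came with a log2 odds ratio of -0.63 (SE 0.11) and an adjusted p of 0.0184.

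**Figure D3:**
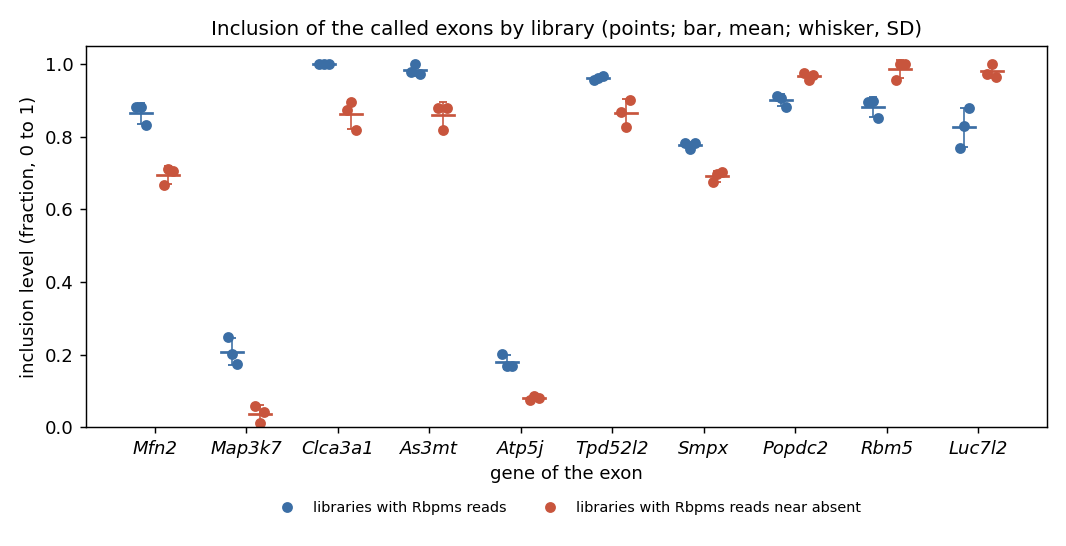
Inclusion level (vertical axis, 0 to 1) of the 10 called exons in each library, with points for libraries, bars for the mean of 3 and whiskers for the SD. The 7 exons to the left fell and the 3 to the right rose in the Rbpms-absent set, and the points of the sets do not overlap for any of them.

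The other called falls lay outside untranslated regions, 3 of them in coding sequence. Clca3a1 belongs to the family of calcium-activated chloride channel regulators. Its 265-base exon (exon 11 of 14, chr3:144746764-144747028, minus strand) was included in every read of the present set, at 1.00 in all 3 libraries, and at 0.873, 0.895 and 0.818 in the absent set, from 59 to 133 reads. Reading through the skip gave a stop 78 bases past the join and 330 bases before the last junction. The skipping form was in no annotated transcript. With a set at its ceiling the log2 odds ratio of -3.54 (SE 0.39, adjusted p of 0.00345) depends on the 0.5 reads added to each count, and the difference in mean inclusion was -0.138.

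As3mt encodes arsenite methyltransferase, which methylates inorganic arsenic. Its 151-base exon, exon 4 of 11, was at 0.977, 1.00 and 0.972 in the present set and at 0.880, 0.818 and 0.879 in the absent set, from 47 to 86 reads. As the printed skipped sequence shows, skipping brings a stop 67 bases past the join and 632 bases before the last junction. The skipping form is annotated, but in no transcript that is protein-coding or a decay target. The fall of 0.124 came with an adjusted p of 0.0410.

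Tpd52l2 encodes a coiled-coil protein of the tumor protein D52 family. Its 149-base exon, exon 3 of 7, was at 0.955, 0.962 and 0.967 against 0.867, 0.828 and 0.902 in the absent set, from 85 to 131 reads. Here the shifted frame ran on for 171 bases and ended 22 bases before the last junction, nearer to it than the 50 bases used here as the usual distance for decay. As at Clca3a1, the skipping form was in no annotated transcript. The fall of 0.0957 came with an adjusted p of 0.0483.

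Map3k7 encodes TAK1, a kinase that relays signals of TGF-beta and of inflammatory receptors. Its 137-base exon occurs only in a noncoding transcript in the annotation, and joined into the coding transcript it ends the frame 176 bases on, 310 bases before the last junction. Inclusion was 0.248, 0.203 and 0.174 in the present set and 0.060, 0.011 and 0.043 in the absent set, from 71 to 88 reads. The minor, stop-bearing form was thus at a lower level in each library of the absent set, with a difference of -0.170 and an adjusted p of 0.0476. The gene's RPKM was 22.2, 22.5 and 22.7 in WT and 24.4, 26.2 and 27.1 in KO, a log2 change of 0.20 (SE 0.07) with an adjusted p of 0.135.

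All 3 called exons that rose moved to near full inclusion. Popdc2 encodes a Popeye-domain protein that binds cyclic AMP in heart and skeletal muscle. Its 559-base exon, which holds a start or stop codon (chr16:38373819-38374377, plus strand), was at 0.911, 0.908 and 0.881 in the present set and 0.975, 0.957 and 0.969 in the absent set, from 703 to 903 reads. The rise of 0.067 came with a log2 odds ratio of 1.69 (SE 0.23) and an adjusted p of 0.00593. A shorter version of this exon, of 418 bases (chr16:38373819-38374236), stood at 0.904, 0.899 and 0.884 against 0.956, 0.931 and 0.945, with an adjusted p of 0.0601. It has the same start and lies within the called exon, so it is not separate support for the call.

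Rbm5 encodes a splicing regulator of the early spliceosome. Its 61-base coding exon, exon 8 of 25, was at 0.895, 0.899 and 0.851 against 0.957, 1.00 and 1.00 in the absent set, from 40 to 125 reads. The skipped form is annotated as a decay target, and the printed sequence reaches its stop 87 bases past the join and 1607 bases before the last junction. The rise of 0.104 came with an adjusted p of 0.0483.

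Luc7l2 encodes a protein that joins U1 small nuclear ribonucleoprotein at 5' splice sites. Its 68-base exon (chr6:38565655-38565722, plus strand) is annotated only in a decay transcript. Between the flanking exons of this event inclusion was 0.769, 0.830 and 0.878 in the present set and 0.974, 1.00 and 0.965 in the absent set, from 29 to 73 reads. The rise of 0.154 came with an adjusted p of 0.0483. The skipping form was in no annotated transcript and its frame could not be followed, so the high level does not say how much of all Luc7l2 RNA held the exon.

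The calls differed in how far they rested on single libraries. In 6 fits that each left out 1 library, Clca3a1 and Atp5j passed in all 6, with adjusted p up to 0.0213 and 0.0317. Popdc2 failed only without absent library 3 (0.0516). Mfn2 failed without present library 1 or 2 or absent library 3, with adjusted p up to 0.0656. Smpx failed without present library 1 or 2 or absent library 2 or 3, with adjusted p up to 0.0904. Map3k7 and Rbm5 passed only without absent library 1, with adjusted p up to 0.136 and 0.175 in the others. As3mt, Tpd52l2 and Luc7l2 passed in none, with lowest adjusted p of 0.0536, 0.0682 and 0.0739. The calls also rested on the filter on mean inclusion, since without it Clca3a1 was the only one of the 10 that passed and Atp5j, at an adjusted p of 0.802, did not.

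Because fewer than 5 rises were called, the 5 largest rises with sets that do not overlap are given as values. They did not pass the test and had 24 to 58 reads per library. Magi1, a scaffold of cell junctions, had an 89-base exon at 0.421, 0.565 and 0.622 against 0.882, 0.778 and 0.778 (adjusted p of 0.229). Nr1d1, the circadian repressor REV-ERB alpha, had one of 89 bases at 0.623, 0.679 and 0.417 against 0.810, 0.826 and 0.765 (adjusted p of 0.340). Skipping that exon ends the frame 140 bases past the join, as printed. Add1, the actin-capping adducin 1, had a 178-base exon of the 5' untranslated region at 0.217, 0.164 and 0.172 against 0.415, 0.333 and 0.418 (adjusted p of 0.247). Cyld, a deubiquitinase, had a 166-base exon, with a stop beginning at base 6 as printed, at 0.224, 0.163 and 0.250 against 0.529, 0.30 and 0.409 (adjusted p of 0.430). The Cyld exon is coding in an annotated transcript, but none joins it to both flanking exons of this event. Slc38a10, an amino acid transporter, had a 118-base exon at 0.667, 0.80 and 0.677 against 0.875, 0.833 and 1.00 (adjusted p of 0.367). By the way they were picked, each of these exons was higher in all 3 absent libraries than in any present library.

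The authors' deposited rMATS table gave a false discovery rate (FDR) below 0.05 to 30 of the 947 exons, 15 higher and 15 lower (3.17%), against 6.24% of all exons tested, and all 10 exons called here were among them. Over all 13679 exons, tested or not, the authors' deposited table had 101, of which 40 had at least 20 reads in each library. Among the 20 that limma did not call, the widest difference was at Fam126a, whose product hyccin helps to hold a lipid kinase at the plasma membrane. Its 298-base exon stood at 0.816, 0.872 and 0.808 in the present set and 0.600, 0.644 and 0.466 in the absent set (adjusted p of 0.0682 by limma). A 59-base exon of Eno1, enolase 1, stood at 0.064, 0.140 and 0.130 against 0.020, 0.042 and 0.039 (adjusted p of 0.0569 by limma). A 167-base exon of Pkm, pyruvate kinase, which has a known pair of mutually exclusive exons, stood at 0.727, 0.755 and 0.704 against 0.632, 0.616 and 0.592 (adjusted p of 0.101 by limma). A 62-base exon of Myl6, the essential light chain of smooth and nonmuscle myosin, stood at 0.038, 0.029 and 0.058 against 0.142, 0.081 and 0.084 (adjusted p of 0.0995 by limma). The sets do not overlap at any of these exons, and they pass only in the authors' test. These 4 of the 20 exons were picked after their values were seen.

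Smooth muscle and airway markers in the RPKM table also differed between the genotypes. The summed level of 8 contractile smooth muscle markers was 1043 to 1214 RPKM in WT and 355 to 461 in KO, and 5 of the 8 passed as lower. Of 8 airway and lung epithelium markers 7 were lower in KO, with sums of 695 to 979 RPKM in WT and 1.66 to 20.9 in KO. Of 6 endothelial markers 4 were higher in KO (166 to 195 RPKM in WT, 227 to 257 in KO), and of 8 cardiomyocyte markers 1 was lower (15519 to 16567 in WT, 10741 to 14696 in KO). Of 6 fibroblast markers 1 was higher, with sums of 431 to 633 RPKM in WT and 440 to 589 in KO. Of 5 blood and immune markers 4 were tested and 1 was lower, with sums of 664 to 2191 in WT and 619 to 847 in KO. In bulk tissue, fewer cells of a type, less RNA per cell and a difference in the tissue collected cannot be told apart. The source of the airway and lung transcripts in these ventricle samples was not tested. The part of these shifts in the inclusion differences was not tested either.

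Genes of splicing factors and RNA-binding proteins held the most tested exons of any gene list, 54 in 36 genes. The list held 2 of the 10 calls, Rbm5 and Luc7l2, both higher, which is 3.70% of its exons against 2.26% of all exons tested. Both rest on few skipping reads. These were 6, 6 and 6 against 3, 0 and 0 in the absent set for Rbm5. For Luc7l2 they were 6, 3 and 3 against 1, 0 and 1. With 2 reads added to each count, neither passed (adjusted p of 0.104 and 0.0617 by limma). Of the 54 differences 36 were above 0 and 17 below, with a median of 0.022, beside a median of -0.00533 over all 947 and 429 above and 514 below. The 54 include overlapping versions of an exon in Hnrnpr, Clk2, Hnrnpc and Tial1, all with differences above 0. Of all 947 tested exons, 76 overlap another, so these counts are not of separate exons. The sets did not overlap for 6 exons (11.1%, against 17.3% of all), 5 of them higher. The authors' deposited table gave 4 an FDR below 0.05 (7.41%, against 6.24% of all), all higher, at Rbm5, Luc7l2, Sf3b1 and Hnrnph3. In RPKM, 5 of the 78 list genes tested (6.41%) were lower in KO, against 3.99% lower over all genes. The list was written with earlier results of these data known, and its direction is a description.

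Among these, 16 exons occurred only in decay transcripts, and 11 of the 16 differences were above 0. The 16 are not all separate, since they include overlapping versions of a Tial1 exon, and Luc7l2 and Rbm39 hold more than a single exon. Sf3b1 encodes the U2 small nuclear ribonucleoprotein subunit that binds near the branch point. Its 56-base exon carries the stop in capitals above, at base 18, and its inclusion was 0.051, 0.035 and 0.043 in the present set and 0.112, 0.085 and 0.116 in the absent set. The sets were apart but the limma test gave an adjusted p of 0.0682, and the authors' deposited table an FDR of 0.00398. The RPKM of Sf3b1 was 40.1 in WT and 42.9 in KO on average, with an adjusted p of 0.637. A decay exon of Rbm39, 73 bases, stood at 0.374, 0.401 and 0.470 against 0.545, 0.464 and 0.528 (adjusted p of 0.472). The decay exon of Tra2b, a splicing activator known to limit its own level through such an exon, stood at 0.333, 0.278 and 0.509 against 0.529, 0.452 and 0.429 (adjusted p of 0.760). Both of these overlapped between the sets. In the other direction Prpf38b, a spliceosome component, had an exon at 0.182, 0.186 and 0.135 against 0.047, 0.142 and 0.085 (adjusted p of 0.568).

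**Figure D4:**
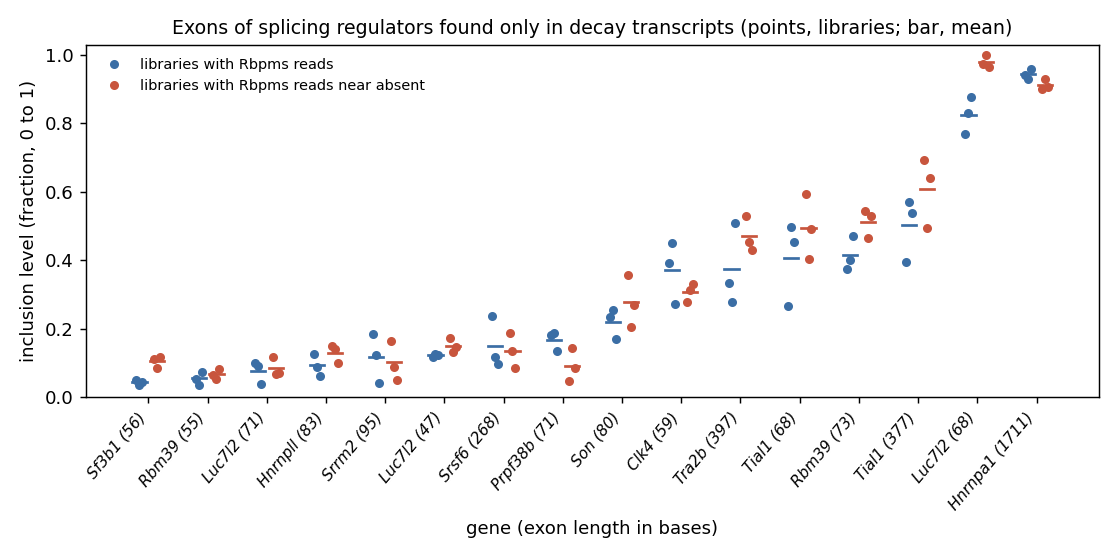
Inclusion level (vertical axis, 0 to 1) of the 16 tested exons of splicing regulators found only in decay transcripts, named by gene with the exon length in bases, with points for libraries and bars for means of 3. Sf3b1 and the Luc7l2 exons of 68 and 47 bases are apart between the sets, with the higher values in the Rbpms-absent set, and the other 13 overlap.

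The other 5 lists had 0 calls by limma. At an unadjusted p below 0.05 there were 3 of their 37 exons (8.11%, against 11.7% of all exons tested). The authors' deposited table called 1 (2.70%, against 6.24% of all), the Add1 exon above. Genes of the sarcomere, Z-disc and costamere had 10 tested exons, 7 above 0 and 3 below. One of them was a 95-base coding exon of Nrap, an actin-anchoring protein of myofibril assembly, at 0.572, 0.567 and 0.553 against 0.648, 0.670 and 0.643 (adjusted p of 0.241), in a gene whose RPKM was 80.1 in WT and 131 in KO on average (adjusted p of 0.0068). The actin, adhesion and membrane traffic list had 13 tested exons, 6 above 0 and 7 below. In Add1 the values of separate exons went in opposite directions, since a 37-base exon stood at 0.437, 0.439 and 0.458 against 0.308, 0.304 and 0.369 (adjusted p of 0.322). Cell division and cytokinesis genes had 4 tested exons, 2 above 0 and 2 below, in Birc5, Nuf2, Racgap1 and Ndel1. Transcription factors and chromatin genes had 8 tested exons with 7 above 0. The decay machinery had 2, both in Rnps1 and both below 0.

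Rbpms itself holds 4 of the frame-shifting exons, and none was tested because the absent set had at most 4 reads at any of them. In the present set the 151-base exon was included at 0.975, 0.965 and 0.986 and the 134-base exon at 0.919, 0.934 and 0.924. The 104-base exon was at 0.076, 0.114 and 0.094. The 130-base exon, found only in a decay transcript, was at 0.146, 0.097 and 0.122. The paralog Rbpms2 had 3 skipped exons, all frame-keeping, and its RPKM was 35.6, 36.8 and 40.1 in WT and 16.3, 23.7 and 22.7 in KO (log2 change -0.84, SE 0.14, adjusted p of 0.0127).

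Of the 792 genes with a tested exon, 784 had RPKM values to test. In limma on log2(RPKM + 0.5), 52 (6.63%) passed, 18 higher and 34 lower in KO, against 6.37% of all 12907 genes tested, 2.38% higher and 3.99% lower. The median log2 change of the 784 genes was -0.03, as over all genes. The share of these genes that changed in level was near that of all genes. An FDR below 0.05 in the authors' deposited table was given to 86 of these genes, against 10.7% of all genes. The limma count rested most on WT replicates 1 and 2, since it was 8 without replicate 1 and 5 without replicate 2. It also fell to 22 without KO replicate 2 and to 19 without KO replicate 3. Without KO replicate 1 it was 44, and without WT replicate 3 it was 52.

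Of 93 genes with an exon that differed by 0.1 or more, 7 had a called RPKM change (7.53%), a share near the 6.37% of all genes. Of the 10 genes with a called exon 2 did, too few to set against that share. Mfn2 was at 93.1, 93.6 and 96.4 RPKM in WT and 59.1, 73.7 and 75.5 in KO, without overlap. Its log2 change on the log2(RPKM + 0.5) scale was -0.45 (SE 0.10, adjusted p of 0.0394), which passed in 2 of 6 fits without 1 library. It did not pass with RPKM rescaled by the median ratio (0.0783) or with WT replicates 1 and 2 as 1 sample (0.140). Clca3a1 was at 11.8, 12.1 and 11.7 RPKM in WT and 29.96, 19.8 and 21.7 in KO. Its log2 change was 0.95 (SE 0.14, adjusted p of 0.00869), and it passed in all 6 such fits. At Clca3a1 RPKM was higher in KO, and the stop-bearing skip was more frequent in the absent set. At Mfn2 RPKM was lower in KO, with an inclusion change outside the coding sequence. Whether the inclusion and RPKM changes were linked was not tested. For the exons whose skipping brings an early stop, 22 had inclusion lower by 0.1 or more, and the median log2 RPKM change of their genes was -0.03, as for all tested exons.

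**Figure D5:**
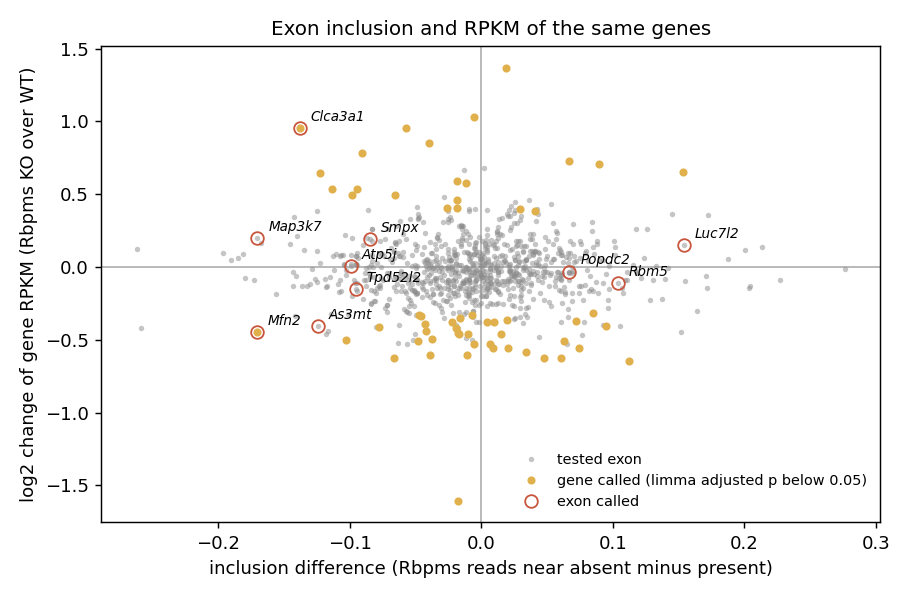
Difference in mean inclusion (horizontal axis, Rbpms-absent minus Rbpms-present set) and log2 change in RPKM of the same gene (vertical axis, KO over WT) for tested frame-shifting exons in genes with an RPKM test. Yellow points are genes with a called RPKM change and red circles are called exons, and the 2 circles on yellow points are Mfn2 and Clca3a1.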

How the data were processed

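Polyadenylated RNA of mouse heart ventricle was sequenced in 3 WT and 3 Rbpms KO libraries, grouped by the sample titles. RPKM values were deposited by the authors for genes, scaled to gene length and library total. The submitters' processing notes name FastQC 0.11.4, featureCounts 1.6.0 and GRCm38. For the aligner, the rMATS version and its annotation, nothing is given in the sources used here. Fold changes in the authors' deposited tables are log2 values (KO over WT) and the FDR is an adjusted p-value, per the file headers. Exon inclusion levels and junction reads come from the authors' deposited rMATS sheet of skipped exons, junction reads only, per the file headers.

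Many cells of that sheet had lost the commas between the 3 read numbers. The numbers were recovered so that they gave the printed inclusion levels within 0.00051, and 1 of the 2341 tested exons allowed several readings. Reads on tested frame-shifting exons summed to 81840 to 96371 per library.

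Exons with at least 20 reads in each of 6 libraries and a mean inclusion of 0.05 to 0.95 were tested with limma 3.58.1 in R 4.3.3 on the log2 odds of inclusion with 0.5 reads added, with a variance trend on read depth. RPKM were tested with limma on log2(RPKM + 0.5) for genes at 0.5 RPKM or more in at least 3 libraries. Both were adjusted by Benjamini-Hochberg over all features tested and called at 0.05. Both fits and the recovery of reads were tested on simulated data. There the inclusion fit gave few false calls and the right signs, and it recovered nearly all changes at deeply read exons but missed most of them overall and at exons with under 50 reads. It fell short of the recovery first asked of it, and the mark was then set on deeply read exons alone, so low shares of calls come with low known recovery. An exact permutation test of 3 against 3 cannot go below 0.1. Exons were placed in GENCODE M21 transcripts by their coordinates. The frame was followed by taking the exon out of a transcript where it is coding and that holds both of its junctions. Where there was none, the exon was added to a coding transcript that holds the skipping junction.

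The exons, gene lists and marker lists were chosen with earlier results of these data known. Named exons were up to 12 called rises and 12 called falls whose sets do not overlap, or the 5 largest differences where fewer than 5 were called, the called exons of listed genes, exons of Rbpms and Rbpms2, and genes with both a called exon and a called RPKM change. Other exons are said to be chosen after their values were seen, and so are the list members named without a call. Other read minimums, scales, normalizations and left-out libraries were tried. The other event types were not used.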

Additional observations from a re-analysis of the deposited data

How the results depend on the processing

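The count of 10 called exons (3 higher, 7 lower) moved by over 1.5 times in these alternatives. With no filter on mean inclusion it was 5, with 0 higher, and 1 of the original 10, Clca3a1, was among them, the other 9 being lost. With a difference of at least 0.1 it was 6, with 4 lower. By the authors' deposited FDR it was 30, all 10 included, with 15 higher and 15 lower. With 2 reads added 5 were higher, and with exon body reads included 4 were lower and 4 of the original 10 passed (Mfn2, Clca3a1, Atp5j and Popdc2). The cause of these shifts was not tested. Leaving out 1 library gave 2 to 7 calls, with 0 to 2 higher and 2 to 5 lower. In the other alternatives tried, the total was 8 to 14. Arcsine scaling kept 7 of the 10 (not As3mt, Tpd52l2 and Luc7l2). Adding 2 reads kept 8 (not Rbm5 and Luc7l2), and a minimum of 10 reads kept 8 (not Tpd52l2 and Luc7l2). For the 10 called exons and the 5 largest rises, no alternative reversed the direction, but few could have. Most alternatives leave the difference in mean inclusion itself as it is. The sets of these exons do not overlap, so leaving out 1 library cannot reverse it. Only exon body reads or another event of the same exon could have done so. The other named exons were not put through the alternatives.

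The count of 52 genes with a called RPKM change was 86 by the authors' deposited FDR, 5 with the mean of WT replicates 1 and 2 as 1 sample, and 5 to 52 without 1 library. With the replicate block it was 29, and Mfn2 had an adjusted p of 0.0543. Same-numbered libraries correlated at 0.213, -0.270 and 0.122 in their deviations from the group means, so the numbers were not taken as pairs. For inclusion, no paired fit was made because the sheets carry no replicate numbers.

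RPKM changes near 0 that did not pass changed sign. With rescaling by the median ratio the log2 change was 0.0141 at Magi1 and 0.00181 at Popdc2, and it was 0.0249 and 0.0195 in the authors' deposited table. Without 1 library it ran from -0.0890 to 0.105 at Atp5j, -0.0682 to 0.0773 at Magi1, -0.243 to 0.00435 at Nr1d1, -0.0870 to 0.0695 at Popdc2, -0.447 to 0.132 at Rbm5 and -0.00787 to 0.125 at Slc38a10. Read depth limits the inclusion test, since 573 of the 947 exons had under 50 reads in their shallowest library.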
